A study of Homo sapiens with 18 samples.

Results

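Among the 86965 windows of the accessibility table on chr1 to chr22, 170 were open in A2780 and its derivative CP70 and at least 2-fold lower in each of 4 other ovarian cancer lines. They were chosen by their signal. A window entered when its mean over the 3 libraries of A2780 and its mean over the 3 libraries of CP70 were both above 1.5 FPKM and both at least 2 times the highest of the means of PEA1, PEA2, PEO1 and PEO4. FPKM is here the number of reads in a window scaled to the length of the window and to the total reads of the library. The whole table held 89428 windows. Of the 16169 windows over 1.5 FPKM in both A2780 and CP70, the 170 were 1.05%. The difference between these 2 lines and the other 4 is therefore how the windows were picked, and it is described below without a test.

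ATAC-seq, in which the Tn5 transposase cuts DNA where chromatin is open, was run on 6 established human lines with 3 libraries each and no drug treatment named in the labels. A2780 is a platinum-sensitive line labelled as endometrial/ovarian cancer, and CP70 is a platinum-resistant derivative of it selected in culture. PEA1 (sensitive) with PEA2 (resistant) and PEO1 (sensitive) with PEO4 (resistant) are pairs of lines, each pair from 1 patient with high-grade serous ovarian cancer, taken before and after resistance arose in the patient. All 6 lines were grown in RPMI-1640 with serum. Each line is 1 culture lineage, so A2780 and CP70 share an origin and count as 1 lineage against 2. Nothing in the labels says whether the 3 libraries of a line came from separate cultures, so the spread between libraries on which the p-values below rest may be technical.

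Open chromatin marks active promoters at gene starts and enhancers that lie in introns or between genes. Promoters tend to be open in many cell types, whereas enhancers differ between them, and the factors bound there leave short sequence motifs. AP-1 (FOS and JUN dimers) and TEAD are common at enhancers of epithelial and mesenchymal cancer lines.

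Library depth and signal differed between the lines. Library totals ranged from 8963079 to 60435027 reads, and the windows of the table held 8.38% to 10.0% of the reads in the A2780 libraries, 11.8% to 15.6% in CP70, 12.9% to 20.7% in PEA1 and PEA2, and 32.9% to 40.8% in PEO1 and PEO4. FPKM is scaled to the library total, so the rule asked more of A2780 and CP70 than of lines with a larger share of reads in windows. When each library was scaled to its reads inside the table, 1293 windows met the same rule, all 170 among them. The same rule turned round, asking for both PEO lines above 1.5 FPKM and 2 times all others, took 15996 windows on the deposited scale and 1488 on the other, and for both PEA lines 948 and 1803. One read was worth 0.0165 to 0.0225 FPKM in A2780 and 0.0873 to 0.111 FPKM in PEO1, so low values in PEO1 rest on few reads.

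The epithelial and serous identity of the lines was read at promoter windows of marker genes chosen for the purpose. At the start of EPCAM, an epithelial adhesion gene, the mean was 0.740 FPKM in A2780 and 1.18 in CP70, against 1.10 (PEA1), 2.09 (PEA2), 11.3 (PEO1) and 10.5 (PEO4). At the start of PAX8, the Muellerian lineage factor, it was 0.610 FPKM in A2780, 0.900 in its derivative and 2.47 to 7.90 in the 4 serous lines. Not every marker followed this order. SOX17, another Muellerian factor, had 0.896 FPKM in A2780 and 0.939 in CP70 against 0.721 in PEO1 and 0.661 in PEO4, the keratin gene KRT7 had 0.767 in PEA1 against 0.898 in A2780, and KRT18 had 1.27 in PEA2 against 1.99 in CP70. None of the marker windows was a member. The starts of PTPRC and CD3E (leukocytes), CDH5 (endothelium), and COL1A1 and PDGFRB (fibroblasts) had no window in the table. The mesenchymal markers VIM, ZEB1, CDH2 and FN1 had means over 1.5 FPKM in both A2780 and CP70, at 1.51 to 4.55, and at 1.60 to 10.2 in the others. Other mesenchymal genes were mixed. SNAI1, SNAI2, TWIST1 and COL5A2 were over 1.5 FPKM in both lines, PRRX1 and SPARC in A2780 alone, and TWIST2 in CP70 alone. LOX, TGFBI, COL1A2 and MMP2 were at 0.703 to 1.24 FPKM in A2780 and CP70.

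The windows that show the pattern best are given first with their DNA. The window with the widest margin, chr1:172113300-172114300 (GRCh37), lies in an intron of DNM3 and holds the start of DNM3OS, the antisense RNA that is processed into miR-199a and miR-214. Inside it lies the gene of miR-199a-2, MIR199A2, at chr1:172113675-172113784 on the minus strand. Its 2 mature RNAs are shown because they are the products encoded in the window, with the seed, bases 2 to 8, in capitals (RefSeq, GRCh38.p14). The positions of both were found by matching them to GRCh37.

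miR-199a-5p (chr1:172113732-172113754): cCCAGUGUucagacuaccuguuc
miR-199a-3p (chr1:172113694-172113715): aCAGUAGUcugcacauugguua

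For this window and 3 others among the 10 with the widest margin, 200 bases follow on the plus strand of GRCh37. These are the 200 bases with most matches to the 13 motifs of the motif comparison, with the matches in capitals. They are shown because the margins of these windows were among the widest. The window at chr15:35592300-35593300, whose margin was wider than that of the SPRY2 window, is not shown and held an AP-1 match. None of the 4 stretches shown held a match to AP-1 or TEAD, though the ZFHX3 window held a TEAD match outside its stretch.

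DNM3OS (chr1:172113529-172113728): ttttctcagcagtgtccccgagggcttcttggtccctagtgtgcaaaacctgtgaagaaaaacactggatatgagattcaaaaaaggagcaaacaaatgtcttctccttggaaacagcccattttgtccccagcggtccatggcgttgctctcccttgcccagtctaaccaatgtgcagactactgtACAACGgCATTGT
ANO3 intron (chr11:26370900-26371099): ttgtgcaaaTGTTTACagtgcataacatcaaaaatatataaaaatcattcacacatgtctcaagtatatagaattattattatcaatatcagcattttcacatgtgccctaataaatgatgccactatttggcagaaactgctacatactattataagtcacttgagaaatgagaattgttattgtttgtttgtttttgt
ZFHX3 intron (chr16:73726841-73727040): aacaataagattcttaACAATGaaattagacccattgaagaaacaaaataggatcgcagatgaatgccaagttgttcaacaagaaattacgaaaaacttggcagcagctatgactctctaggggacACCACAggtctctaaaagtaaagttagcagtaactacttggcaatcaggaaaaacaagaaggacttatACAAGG
SPRY2 flank (chr13:80919181-80919380): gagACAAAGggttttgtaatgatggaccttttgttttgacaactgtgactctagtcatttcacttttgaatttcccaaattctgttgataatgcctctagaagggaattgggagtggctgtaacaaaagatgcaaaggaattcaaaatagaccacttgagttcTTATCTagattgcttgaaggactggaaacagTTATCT

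The DNM3OS stretch holds 2 SOX matches (ACAANG), both within the MIR199A2 gene. The SPRY2 stretch holds 1 match to SOX and 2 to the GATA factor motif, searched as AGATAA. In the ZFHX3 stretch SOX matched 2 times and RUNX 1 time, where the letters searched for RUNX were TGTGGT. The only match in the ANO3 stretch was to the forkhead (FOX) motif, which reads TGTTTAC. The stretches were picked for their matches, so the counts in them are descriptions.

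The promoters of 3 members follow, as the 200 bases before the annotated start, 5′ to 3′ on the strand of the gene (GRCh37), with the same matches in capitals. These 3 were chosen after their values were seen, because all 200 bases lie inside the member window and their genes belong to the germ line and neuronal groups described with the promoters.

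PRDM9 (chr5:23507518-23507717): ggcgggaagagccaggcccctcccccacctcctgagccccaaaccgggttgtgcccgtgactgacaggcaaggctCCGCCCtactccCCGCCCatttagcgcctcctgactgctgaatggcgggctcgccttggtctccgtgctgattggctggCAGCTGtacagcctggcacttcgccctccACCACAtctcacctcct
CACNA1B (chr9:140772034-140772233): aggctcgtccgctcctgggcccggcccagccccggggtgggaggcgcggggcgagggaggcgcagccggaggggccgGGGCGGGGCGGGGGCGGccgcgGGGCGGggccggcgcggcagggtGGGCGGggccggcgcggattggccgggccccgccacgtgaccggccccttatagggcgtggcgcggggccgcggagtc
ISL2 (chr15:76628914-76629113): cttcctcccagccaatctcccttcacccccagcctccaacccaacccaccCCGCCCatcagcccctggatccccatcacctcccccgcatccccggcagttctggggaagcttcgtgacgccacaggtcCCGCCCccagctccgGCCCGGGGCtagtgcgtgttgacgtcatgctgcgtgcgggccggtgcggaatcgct

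PRDM9 holds matches to SP/KLF (GGGCGG), the E-box CAGCTG and RUNX, CACNA1B holds 5 to SP/KLF at 86.0% G and C, and ISL2 holds SP/KLF and TFAP2 (GCCNNNGGC). Over the same 200 bases of 18625 autosomal protein-coding genes, SP/KLF matched in 57.2%, TFAP2 in 22.8%, the E-box in 10.9% and RUNX in 7.02%. A match describes letters and does not show that a factor was bound.

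Taken over the 170 windows, the means of 3 libraries had a median of 2.09 FPKM for A2780 and 2.54 FPKM for CP70. The medians of the PEA lines were 0.514 (PEA1) and 0.535 (PEA2), and those of the PEO lines 0.361 (PEO1) and 0.419 (PEO4). Over all autosomal windows the medians ran the other way, from 0.683 in A2780 and 0.852 in CP70 to 2.83 in PEO1. Single libraries gave medians of 1.83 to 2.40 FPKM in A2780 and of 2.30 to 3.11 in CP70, where replicate 1 was the highest. In each of the 170 windows all 6 libraries of A2780 and CP70 lay above all 12 others, which the rule favours.

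**Figure D1:**
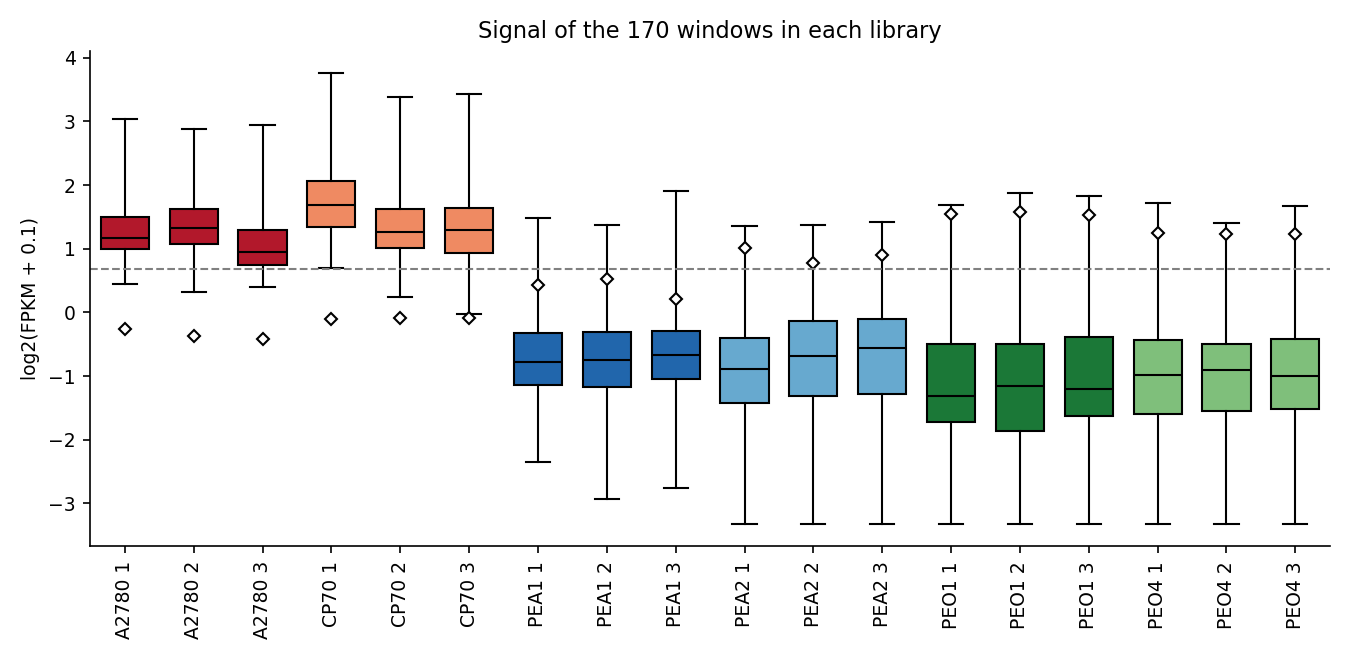
Signal of the 170 windows in each of the 18 libraries on the log2(FPKM + 0.1) scale. Boxes span the quartiles with the median as a line, whiskers run from the lowest to the highest window, open diamonds mark the median of all autosomal windows in that library, and the dashed line marks 1.5 FPKM. The boxes of A2780 and CP70 lie above their diamonds and those of the other 12 libraries below.

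The windows are open in A2780 and CP70 but were not closed everywhere else. In 5 of the 170 the highest of the 4 other means was above 1.5 FPKM, in 25 it was above 1 FPKM, and in 44 all 4 were below 0.5 FPKM. The highest other line was PEA2 in 60 windows, PEA1 in 58, PEO1 in 27 and PEO4 in 25. The ratio of the lower of the A2780 and CP70 means to the highest other mean had a median of 3.01 and ran from 2.00 to 11.6. It was at least 3 in 86 windows, at least 5 in 28 and at least 10 in 2. No window had 3 reads or fewer in all 12 libraries of the other lines.

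**Figure D2:**
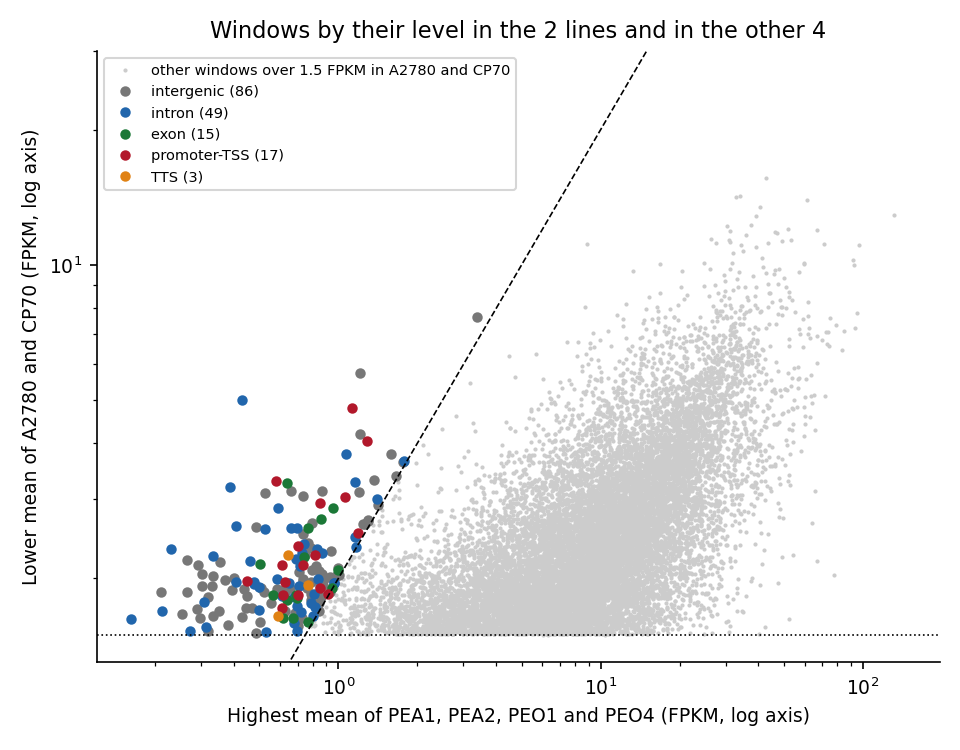
Lower mean of A2780 and CP70 against the highest mean of the other 4 lines, both in FPKM on log axes, for autosomal windows over 1.5 FPKM in A2780 and CP70. Coloured points are the 170 members by genomic class, grey points the other windows, the dashed line is the 2-fold limit and the dotted line 1.5 FPKM. The DNM3OS window lies farthest from the limit, at 4.99 against 0.429 FPKM.

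At the 2-fold limit, the windows just inside were in TSPEAR (chr21:45936900-45937900, ratio 2.003), near NES (chr1:156636900-156637900, 2.008) and near OPN1SW (chr7:128422800-128423800, 2.009). Just outside were a window in UTP23 (chr8:117839700-117840700, 1.9999), an exon of NES itself (chr1:156639600-156640600, 1.991) and a window near MRPL23 (chr11:2018700-2019700, 1.988). At the floor, windows near NUP35 (chr2:184159800-184160800, 1.511 FPKM), in BCAS3 (chr17:59336100-59337100, 1.517 FPKM) and near OR4F4 (chr15:102519900-102520900, 1.524 FPKM) were just inside. Windows near COL5A2 (chr2:190150200-190151200, 1.479 FPKM), RPS12 (chr6:133254000-133255000, 1.474 FPKM) and TMEM30B (chr14:61731900-61732900, 1.469 FPKM) were just outside. NES, which encodes an intermediate filament of neural progenitors, thus had windows on both sides of the 2-fold limit.

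Members lay mostly away from promoters of protein-coding genes, and noncoding genes were not counted in these classes. Of the 170, 86 (50.6%) were intergenic, 49 (28.8%) intronic, 17 (10.0%) at promoters, 15 (8.82%) exonic and 3 (1.76%) at transcript ends. Over all autosomal windows the shares were 36.96% intergenic, 37.2% intronic and 18.9% at promoters. Among windows over 1.5 FPKM in both A2780 and CP70, 54.8% were at promoters. Among the 12844 windows over 1.5 FPKM in all 6 lines it was 59.9%, among the 15996 windows of both PEO lines 30.6%, and among the 948 windows of both PEA lines 5.59%. The median distance to the nearest protein-coding start was 21.9 kb in members against 12.5 kb in all windows and 0.295 kb in windows open in all lines. With 26 members of 2 clusters on chr15 and chr8 left out, 41.7% of the remaining 144 were intergenic and 34.0% intronic. Among the 1293 windows found with scaling to reads inside the table, 32.6% were intergenic and 14.1% at promoters, so the intergenic share depended on the scaling.

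The median G and C content of members was 55.5%, with quartiles of 45.3% and 61.8%, against 50.4% over all autosomal windows. Their ratio of observed to expected CpG had a median of 0.360 against 0.307 over all windows and 0.769 in windows open in all 6 lines. CpG-rich windows, with over 50% G and C and a ratio over 0.6, made up 28 of the 170 (16.5%) against 23.3% over all. Most members were thus not CpG-rich, whatever their G and C content.

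The motif most different in frequency was AP-1 (TGANTCA). Outside promoters it matched in 21 of 153 members (13.7%, Wilson 95% interval 9.16% to 20.1% for counting error) against 43.2% of all 70537 non-promoter windows. In windows of both PEO lines outside promoters it was 44.6% and in those of both PEA lines 46.0%. In windows over 1.5 FPKM in A2780 and CP70 it was 14.9%, close to the members, so the low frequency is not particular to the 170. With promoters included it matched in 13.5% of members, 38.3% of all windows and 34.0% of all windows weighted to the G and C content of the members. With the rule on values scaled to reads inside the table it was 15.2% for A2780 and CP70, 59.9% for the PEO lines and 54.7% for the PEA lines. With the chr15 and chr8 clusters left out it was 13.4%.

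TEAD (GGAATG) matched in 32.7% of members outside promoters against 47.8% of all windows, and TCF/LEF (CTTTGA) in 28.1% against 44.8%. In windows over 1.5 FPKM in A2780 and CP70 outside promoters TEAD matched in 34.4% and TCF/LEF in 29.1%, so these low shares too are not particular to the 170. CTCF, searched as its core consensus, went the other way with 10.5% against 5.27%, 3.23% in windows of the PEO lines and 2.46% in those of the PEA lines, and 10.1% in windows over 1.5 FPKM in A2780 and CP70. SP/KLF matched in 45.8% against 37.4% of all windows, but in 84.1% of the windows over 1.5 FPKM in A2780 and CP70. With promoters included it matched in 48.2% of members against 53.6% of all windows weighted to the members' G and C content, so its direction depended on the reference. SOX (78.4% against 82.3%), FOX (11.8% against 12.3%), RUNX (47.1% against 49.7%), the E-box (47.1% against 45.4%), GATA (32.0% against 37.2%), ETS (CCGGAAG, 6.54% against 7.60%), TFAP2 (39.2% against 36.2%) and the POU octamer (ATGCAAAT, 3.92% against 5.38%) were nearer to all windows. In windows over 1.5 FPKM in A2780 and CP70 outside promoters, SOX matched in 68.9%, FOX in 7.91% and RUNX in 32.6%. In the same windows the E-box matched in 45.3%, GATA in 20.5%, ETS in 18.8%, TFAP2 in 64.8% and the POU octamer in 2.74%. All motifs were searched on both strands, GGGCGG and GCCNNNGGC often overlap, and no test was made of these shares.

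**Figure D3:**
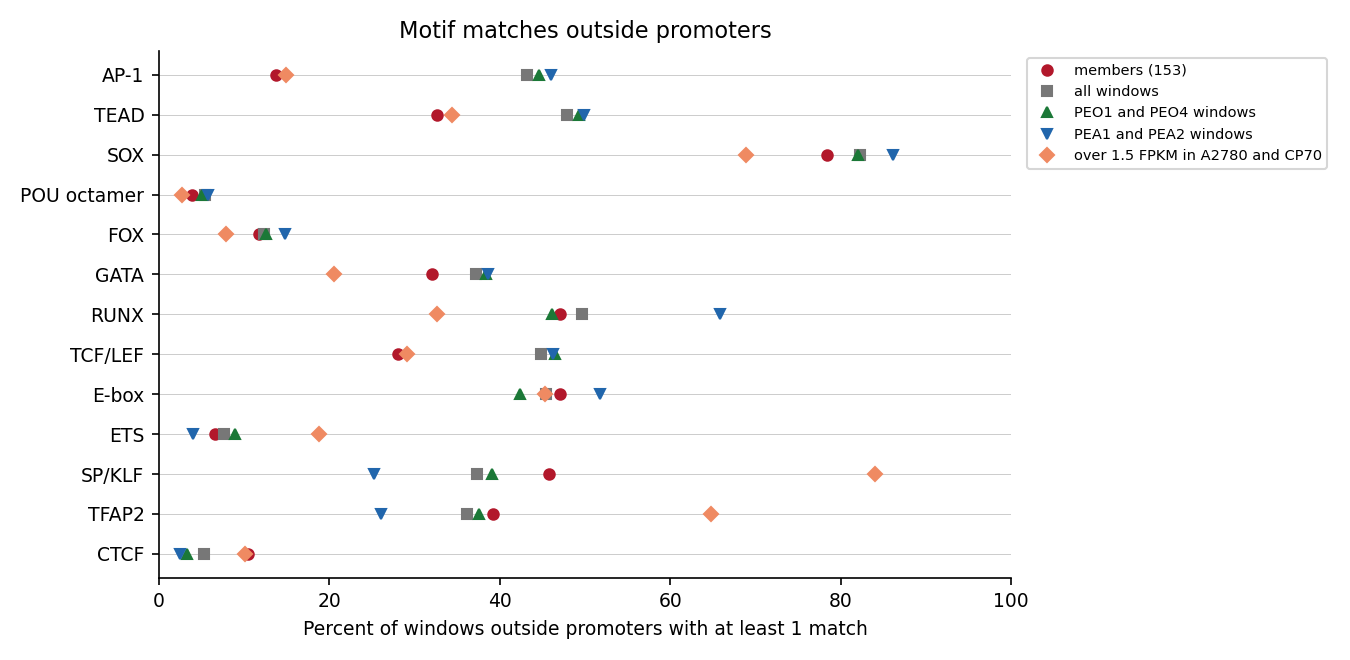
Percent of windows outside promoters with at least 1 match to each of 13 motifs, for the 153 members outside promoters, all table windows on autosomes, windows open in both PEO lines or both PEA lines by the same rule, and windows over 1.5 FPKM in A2780 and CP70. AP-1 matched in 13.7% of members against 43.2% of all windows, and there the diamond for A2780 and CP70 lies beside the members.

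The 10 windows with the widest margin, 1 from each run of touching windows, were all outside promoters of protein-coding genes. The DNM3OS window held 4.38, 6.71 and 3.88 FPKM in A2780 and 7.88, 4.61 and 4.94 in CP70. PEA1 had 0.417, 0.343 and 0.527 and PEA2 had 0.330, 0.462 and 0.444. PEO1 had 0, 0 and 0.111 and PEO4 had 0.116, 0.0960 and 0.349. The lowest of the 6 libraries of A2780 and CP70 was thus 3.88 FPKM and the highest of the other 12 was 0.527, and the touching window at chr1:172114200-172115200 was a member at 3.37 and 3.20 FPKM. The ANO3 window (chr11:26370900-26371900), in an intron of an anoctamin membrane protein gene, had means of 2.97 in A2780 and 2.33 in CP70 against at most 0.231 in the others. The ZFHX3 window (chr16:73726200-73727200), in an intron of a homeobox factor gene, had 1.62 and 1.67 against at most 0.163.

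Near SPRY2, an inhibitor of receptor tyrosine kinase signalling, 5 members lay between chr13:80918100 and chr13:81136900. The best of them, 4239 bases from the SPRY2 start, held 2.69, 3.72 and 2.41 FPKM in A2780 and 3.48, 1.74 and 1.38 in CP70, with 0.417 as the highest value of the other 12 libraries. The SD was 1.13 FPKM in CP70 and 0.688 in A2780. The strongest of the 5, at chr13:80933400-80934400, had 4.55 in A2780, 3.11 in CP70 and 1.20 in PEA1. Members also lay 9435 bases from the start of SPRY1 (chr4:124329600-124330600, 2.48 and 1.64 FPKM) and 38714 bases from that of SPRY4 (chr5:141742800-141743800, 2.71 and 2.05 FPKM). These Sprouty genes were noticed after their values were seen and were on no list.

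The other wide margins were in introns of MSRB3 (1.69 in A2780 and 1.71 in CP70), KCNT2, a potassium channel gene (2.35 and 2.25), and CUBN, the gene of the uptake receptor cubilin (2.62 and 2.65). Between genes they were at chr15:35592300-35593300 (1.87 and 1.87), chr4:125130600-125131600 (2.31 and 2.14) and chr4:125006400-125007400 (3.02 and 1.86). The highest mean of any other line in these 6 windows was 0.406 FPKM. The MSRB3 window had no read in any PEA2 library, where 3 reads would be 0.133 to 0.173 FPKM.

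**Figure D4:**
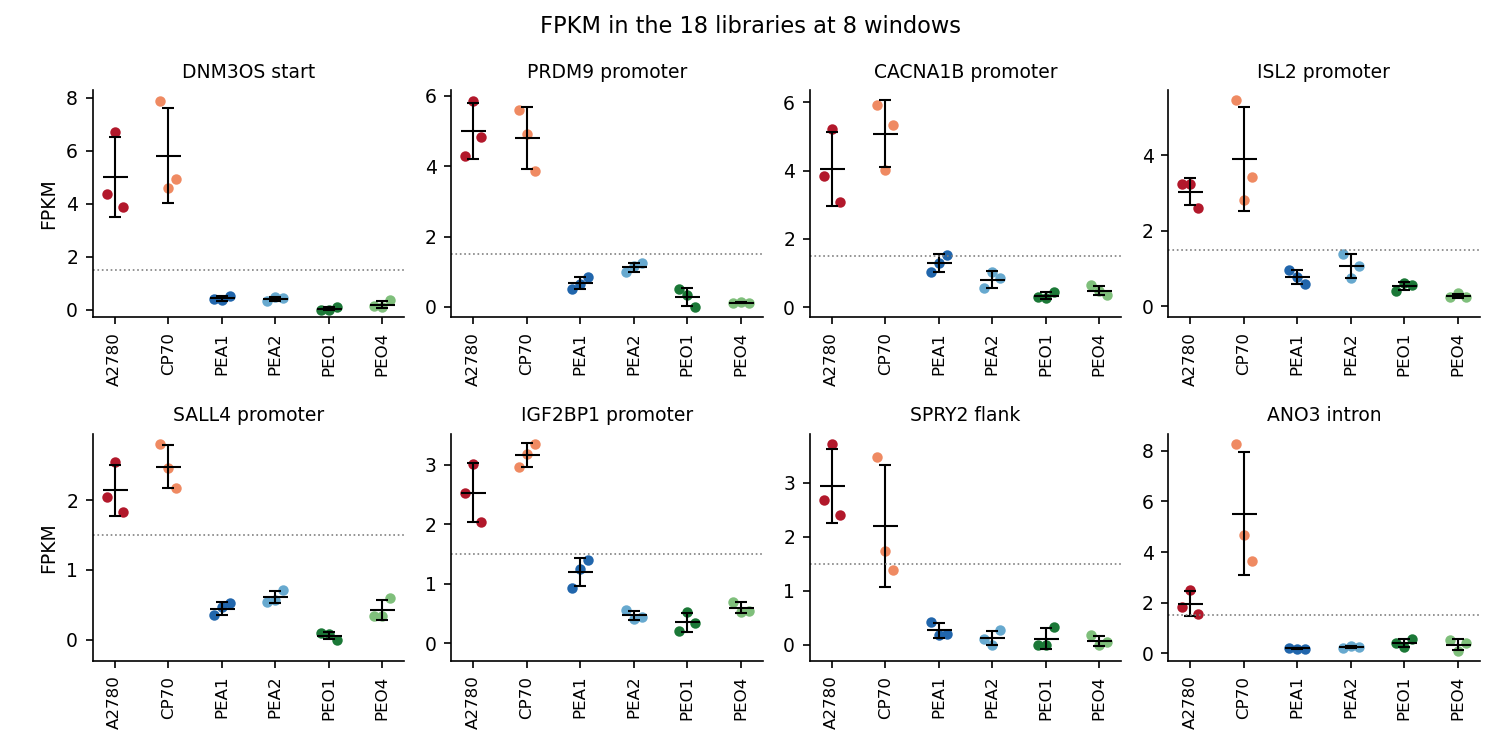
FPKM in each library at 8 member windows. Coloured points are the 3 libraries of a line, the black bars show the mean and 1 SD, and the dotted line marks 1.5 FPKM. At each window the points of A2780 and CP70 lie above those of the other 4 lines, and at the ANO3 intron window plotted, chr11:26374500-26375500, which differs from the one described above, CP70 (5.52) lies above A2780 (1.96).

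Of the 17 promoter members, the strongest was that of PRDM9 (chr5:23507100-23508100), the histone methyltransferase that places meiotic recombination. It held 4.29, 5.86 and 4.83 FPKM in A2780 and 5.61, 4.91 and 3.85 in CP70. The highest other libraries were those of PEA2, at 0.989, 1.16 and 1.24. The 6 libraries of A2780 and CP70 did not overlap the other 12, and the libraries of A2780 and CP70 overlapped each other. The promoter of TEX15 (chr8:30770100-30771100), a gene of male germ cell development, was also a member at 1.71 ± 0.387 (SD, n = 3) in A2780 and 2.45 ± 0.385 in CP70 against at most 0.611.

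Promoters of neuronal genes followed. That of CACNA1B (chr9:140771700-140772700), the pore of the N-type calcium channel, held 3.84, 5.20 and 3.09 in A2780 and 5.91, 4.01 and 5.32 in CP70, with PEA1 next at 1.03, 1.31 and 1.53. Its 5 Mb bin had a median log2 difference between the 2 lines and the other 4 of 0.59, against -1.01 over all windows, so it lay in a stretch with high signal in A2780 and CP70, and its own excess over the bin was 2.02. That of ISL2 (chr15:76628700-76629700), a motor neuron homeobox factor, had 3.03 ± 0.365 in A2780 and 3.90 ± 1.38 in CP70, and 1.06 ± 0.311 in PEA2. That of SIM1 (chr6:100912500-100913500), a factor of the hypothalamus, had 1.84 and 1.86 against 0.700 in PEA2. An exon of NEFH, a neurofilament gene, had 1.84 and 3.53.

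Promoters of 2 oncofetal genes, which are active in embryos and in tumours, were members, of 12 listed oncofetal and stem-like genes with a window. SALL4 (chr20:50418900-50419900), a zinc finger factor of embryonic stem cells, held 2.04, 2.55 and 1.83 FPKM in A2780 and 2.80, 2.45 and 2.18 in CP70, and no library of another line exceeded 0.710. IGF2BP1 (chr17:47073600-47074600), an RNA-binding protein gene, held 2.53, 3.02 and 2.03 in A2780 and 2.95, 3.17 and 3.35 in CP70. Its highest other libraries were those of PEA1, at 0.929, 1.25 and 1.39. The next window, which holds the main IGF2BP1 start, had 1.56 and 2.24 FPKM and was no member, because PEA1 reached 1.00. Other starts on the list were not alike. IGF2BP2 had 3.71 FPKM in A2780 and 4.58 in CP70 against 21.7 in PEO1 and 14.1 in PEO4. IGF2BP3 had 2.54 and 4.55 against 1.26 in PEO1 and 0.953 in PEO4, but 5.01 in PEA1.

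Further strong promoters belonged to DDR2, a collagen receptor kinase (chr1:162601200-162602200, 3.93 and 2.95 FPKM in A2780 and CP70), RSPH9, a protein of the radial spokes of cilia (chr6:43612200-43613200, 2.53 and 2.36), and IFIT2, an interferon-induced gene (chr10:91044000-91045000, 2.49 and 2.26). The highest other mean of these 3 was 0.854, in PEA2 at DDR2. For IFIT2 and EPS8L1 the window lay at an annotated start other than the main one. The promoters of ANKRD45, POTEE, GALNT13, CACNG7, EPS8L1 and SH3BGR were also members, with means of 1.84 to 3.37 FPKM in the 2 lines. The TEX15, SIM1, NEFH, H19, TRIM52 and PDE4D windows were chosen after their values were seen. H19, a fetal noncoding RNA gene, overlapped a further member (chr11:2023200-2024200) at 1.72 FPKM in A2780 and 2.43 in CP70.

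Gene lists chosen for the tissue were counted beside all protein-coding genes. A gene was counted when a member lay in its body or the 5 kb before it. Of 15591 autosomal protein-coding genes with a window in the table, 84 (0.539%) had a member. Among 12 oncofetal and stem-like genes with a window, 2 had one (SALL4 and IGF2BP1). Among 16 genes of mesenchymal transition, 1 had one, COL5A2, a type V collagen chain gene, at 37695 bases from its nearest annotated coding start (chr2:190081800-190082800, 2.13 FPKM in A2780 and 1.57 in CP70). None did among 13 Muellerian and serous lineage factors, 20 genes of epithelial identity, 7 ovarian cancer surface and serum markers, 15 SOX genes, 23 WNT genes, 22 genes of neuronal adhesion and synapse, and 20 genes of AP-1, TEAD and YAP. The shares were thus 16.7% of the oncofetal list and 6.25% of the mesenchymal list, resting on 2 genes and 1 gene, and no list was tested. At 0.539% over all genes, lists of these sizes would mostly hold no member, so the lists without one show nothing particular.

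Members were spread unevenly over the genome. Chr1 held 33, chr15 held 26 and chr19 held 23, and chr18 held none. Relative to the windows of the table this was 0.868% on chr15, 0.752% on chr19 and 0.412% on chr1, against 0.195% over chr1 to chr22. The 170 formed 128 runs of touching windows, of which 95 were single, 26 held 2, 5 held 3 and 2 held 4.

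Both runs of 4 lay on proximal chr15, at chr15:22433400-22437100 and chr15:22513500-22517200. They belonged to 22 members between chr15:20476800 and chr15:22543300, among 91 windows of the table there, in sequence with pseudogenes such as CHEK2P2 and RHPN2P1. Their means ran from 1.63 to 4.20 FPKM in A2780 and from 2.16 to 5.68 in CP70. The ranges of the PEA lines were 0.455 to 1.14 (PEA1) and 0.237 to 1.31 (PEA2), and those of the PEO lines 0.624 to 1.64 (PEO1) and 0.364 to 1.66 (PEO4). The median log2 difference of all 180 windows in that 5 Mb bin was 0.62, and these members exceeded it by 0.79 to 1.54. Members outside this cluster and that on chr8 exceeded their bins by at least 1.39, with a median of 3.21. The whole bin was thus higher in A2780 and CP70, and its part in these values was not tested.

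The cluster on chr8 held 4 members within chr8:58117500-58123900, with BPNT2 as the nearest coding gene. It included the member with the highest lower mean, with 7.67 FPKM in A2780 and 10.4 in CP70. Each of the other lines was also high there, at 2.94, 2.51, 3.39 and 2.94 FPKM in PEA1, PEA2, PEO1 and PEO4, so it was not open in A2780 and CP70 alone. The other 4 of the 5 members over 1.5 FPKM elsewhere were a second window of this cluster, 2 of the chr15 cluster, and a PDE4D intron (chr5:58420800-58421800) with 3.84 FPKM in A2780, 3.66 in CP70 and 1.78 in PEA2. A window 20649 bases from the start of TRIM52 (chr5:180708300-180709300) was the only other member above 5 FPKM in both A2780 and CP70, at 5.75 and 10.7, with at most 1.21 in the other lines. Long runs were also 3 windows at chr15:20548800-20551600 in the chr15 cluster, 3 over the EPS8L1 promoter and first exons (chr19:55591200-55594000, with 1.81 to 2.72 FPKM as the lower of the A2780 and CP70 means), and the 3 beside SPRY2. Runs of 3 also lay at chr15:22501800-22504600 and chr1:17045100-17047900. The run on chr1 belonged to a further cluster of 6 members, chr1:16861500-17054200. Its 5 Mb bin had a median log2 difference of -0.014, and it was kept when the other 2 clusters were left out.

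CP70 was then compared with A2780, which asks whether these windows changed as the line became resistant. The rule required both lines to be high and thereby left out windows with a large loss or gain between them. In limma's moderated test on log2(FPKM + 0.1) over 37128 windows with a mean above 1 FPKM, with Benjamini-Hochberg adjustment, the members' median log2 fold change was 0.26, with a range from -0.77 to 1.39. The median of all windows tested was 0.59 and that of the 16169 windows over 1.5 FPKM in both lines, a reference chosen after seeing the data, was 0.56. CP70 libraries held a larger share of reads in windows than A2780 libraries. The median of members minus that of all windows was -0.32, and -0.0082 without the filter on low values. Both values rest on the A2780 and CP70 means that the rule used, so they are descriptions and show no change of the members.

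At the study's thresholds, a log2 fold change beyond 2 with adjusted p under 0.001, limma called 0 members higher and 0 lower in CP70, where 0.428% and 0.369% of all windows were called. edgeR and DESeq2 on the recovered reads also called 0 in either direction. Of all 37128 windows edgeR called 67 higher and 265 lower, and DESeq2 70 and 257. With both lines kept over 1.5 FPKM there was little room for such a change, so these 0 counts show nothing about members. At an unadjusted p under 0.05, 39 members were higher and 10 lower by limma, against 56.4% and 2.70% of all windows. By edgeR 10 were higher and 77 lower, against 12.3% and 15.9%, and by DESeq2 5 and 67, against 9.73% and 11.8%. At a log2 fold change beyond 1 with adjusted p under 0.05, 3 members were higher and 0 lower by limma, against 11.4% and 1.10% of all windows. The 3 became 1 without CP70 replicate 1, 14 without CP70 replicate 3, 11 without CP70 replicate 2, and 8 or 9 without A2780 replicate 1 or 2. With median centring it was 0 higher and 14 lower, against 1.38% and 3.41% of all windows, so the direction of the calls depended on the scaling. Of the 16169 windows over 1.5 FPKM in both lines, 7.33% were called higher and 0.118% lower by limma at these limits. With median centring these shares were 0.439% and 1.55%. At an adjusted p under 0.05 alone by limma, 31 members were higher and 3 lower, against 47.5% and 2.29% of all windows. Of the 16169 windows it was 41.1% and 0.618%. All CP70 libraries lay above all A2780 libraries in 54 members and below in 5, against 56.2% and 2.84% of all windows.

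**Figure D5:**
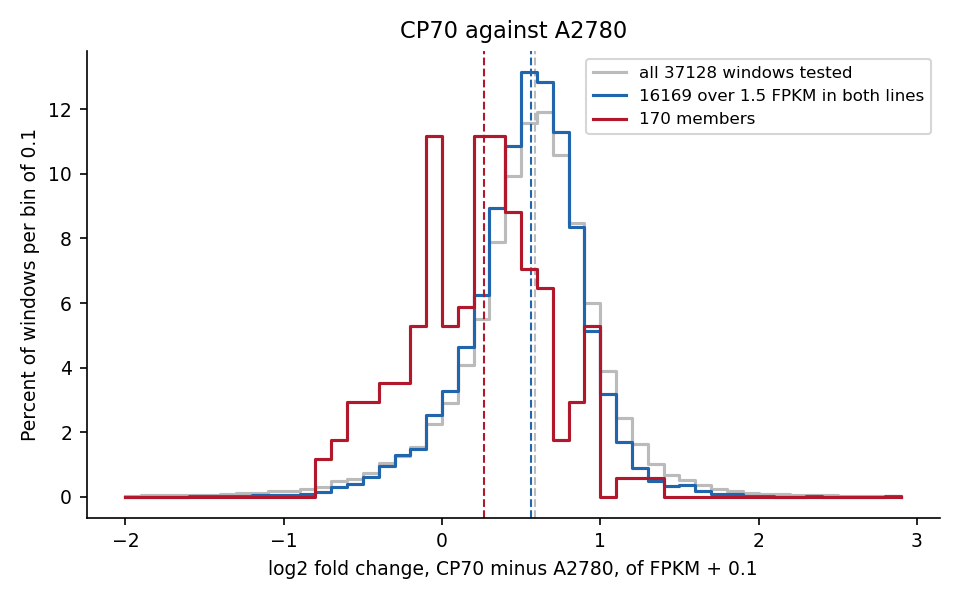
Distribution of the log2 fold change of CP70 over A2780 (FPKM + 0.1) as the percent of windows per bin of 0.1, for all windows tested, for those over 1.5 FPKM in both lines and for the 170 members. Dashed lines mark the medians, at 0.59, 0.56 and 0.26.

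None of the 3 members called higher was at a promoter. In the ANO3 intron, chr11:26374500-26375500 held 1.83, 2.50 and 1.55 FPKM in A2780 and 8.26, 4.67 and 3.64 in CP70. The groups did not overlap, with a log2 fold change of 1.39 ± 0.282 (SE) and an adjusted p of 1.9e-05 by limma. The SE of this fit followed the trend over windows of similar signal, and not the spread of the libraries in the window. It was 0.267 at both chr6:43612200-43613200 and chr13:80919000-80920000, where the SDs of CP70 were 0.309 and 1.13 FPKM. The window at chr2:187718400-187719400, 5003 bases from the start of ZSWIM2, held 2.02, 2.21 and 1.45 in A2780 and 6.82, 4.37 and 3.35 in CP70 (log2 fold change 1.27 ± 0.278, adjusted p 8.4e-05 by limma). An intron of REX1BD (chr19:18701100-18702100) held 2.35, 2.12 and 1.52 in A2780 and 6.06, 3.83 and 4.19 in CP70 (1.19 ± 0.279, adjusted p 2.7e-04 by limma). None of the 3 was past a log2 fold change of 1 with median centring or with the median of each 5 Mb bin removed. With the bin median removed the ANO3 value was 0.83, the ZSWIM2 value 0.72 and the REX1BD value 0.32, the last with an adjusted p of 0.142 by limma. With median centring they were 0.81, 0.69 and 0.61. Without CP70 replicate 1 the ANO3 value was 1.06, and the ZSWIM2 (0.997) and REX1BD (0.991) values fell just short of 1. The DNM3OS, PRDM9 and SALL4 windows were not called.

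The 3 members lower in CP70 at an adjusted p under 0.05 were named after their values were seen. They were the window at chr4:133148700-133149700 with 2.76 ± 0.538 FPKM in A2780 and 1.60 ± 0.482 in CP70 (log2 fold change -0.77 ± 0.259, adjusted p 0.0103 by limma), that at chr4:125006400-125007400 (-0.76 ± 0.263, 0.0135) and a window of the SPRY2 run, chr13:80919900-80920900 (-0.66 ± 0.258, 0.0258). At the chr13 window A2780 held 2.63, 2.97 and 2.23 and CP70 held 2.20, 1.20 and 1.55, without overlap. Each of the 3 lost its call by limma when certain single libraries were left out. The chr4:133148700 window lost it without A2780 replicate 2 (adjusted p 0.0841) or CP70 replicate 3 (0.128), and the chr4:125006400 window without A2780 replicate 2 (0.125), CP70 replicate 2 (0.178) or CP70 replicate 3 (0.0771). The chr13 window lost it without A2780 replicate 1 (0.0748) or 2 (0.112), CP70 replicate 2 (0.176) or 3 (0.0649), and with the bin median removed (0.305). Other settings gave larger falls. With median centring the log2 fold changes were -1.35 at chr4:133148700, -1.33 at chr4:125006400 and -1.24 at the chr13 window. Their adjusted p-values by limma were 3.8e-06, 1.5e-05 and 6.4e-06. With the bin median removed the chr4:125006400 window fell by more than 1 (1.7e-05) and the chr4:133148700 value was -0.84 (0.0013). Without CP70 replicate 1 the values were -0.96, -1.15 and -0.88 in the same order.

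In the serous pairs the choice of members keeps these windows low in sensitive and resistant lines. At the ANO3 window that rose in CP70, the means were 0.201 FPKM in PEA1 and 0.258 in PEA2, and 0.408 in PEO1 and 0.339 in PEO4. At the REX1BD window they were 0.439 and 0.559 in the PEA pair, and 0.187 and 0.584 in the PEO pair, where the libraries did not overlap. At the windows lower in CP70, the libraries of PEA2 lay below those of PEA1 at chr4:133148700 (0.0697 against 0.503) and chr13:80919900 (0.133 against 0.333). They overlapped at chr4:125006400 (0.164 against 0.264). Those of PEO4 and PEO1 overlapped at chr4:133148700 (0.270 against 0.253) and chr13:80919900 (0.159 against 0.167). At chr4:125006400 those of PEO4 lay below those of PEO1 (0.0680 against 0.158). That rests on 1, 2 and 1 reads in PEO4 against 1, 3 and 1 in PEO1, where 1 read was worth more FPKM. No test was made of these pairs.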

How the data were processed

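ATAC-seq reads of 18 libraries were, per the labels and the study's methods, freed of duplicates with Picard, aligned to hg19 with Bowtie2, and counted in windows of about 1 kb spaced 900 bases apart. The authors deposited the counts as FPKM, which for windows of 1 length differs from RPM (reads scaled to the library total) by a constant, for windows above 2 FPKM in at least 2 libraries. Tool versions are not given in the sources used here. Every value was a whole multiple of 1 read (100% within 0.01 reads, windows taken as 1001 bases), so reads were recovered for count tests.

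Members were found by the rule on the means of 3 libraries. Promoter windows had their centre within 1 kb before to 100 bases after the start of a protein-coding transcript (GENCODE 44, lifted to GRCh37). Classes were taken in the order promoter, transcript end, exon, intron. They used protein-coding transcripts only, so windows in noncoding genes, such as DNM3OS, or in pseudogenes were classed by the coding genes alone. Motifs were searched on both strands of the 1001 bases. Bins were of 5 Mb. CP70 and A2780 were compared with limma 3.58.1 (R 4.3.3) on log2(FPKM + 0.1) over windows with a mean above 1 FPKM, which was tested on simulated data, and with edgeR 4.0.16 and DESeq2 1.42.0 on recovered reads as alternatives. Named windows were the 10 with the widest margin (1 per run), the called ones, 3 on each side of each limit, the 5 longest runs, the 8 strongest promoters and those in listed genes, and others are said to be chosen later. The members and lists were chosen with earlier results of these data known. Repeats were not analysed here, and 1 of the 8 promoters is not reported here. No libraries were identical. Intervals cover counting error only.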

Additional observations from a re-analysis of the deposited data

How the results depend on the processing

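The number of windows meeting the rule was 170 on the deposited scale, 1293 with library totals replaced by reads inside the windows, 1899 with median centring, 86 with a fold of at least 3 and 81 with a floor of 2 FPKM. It ran from 119 to 213 when 1 replicate number was left out, with 112 to 164 windows shared with the 170. Leaving out the chr15 and chr8 clusters, a choice made after seeing the data, left 144, of which 41.7% were intergenic, and the rule on scaled values, also looked at afterwards for this share, gave 32.6%. Members called higher in CP70 (beyond 1, adjusted p under 0.05) numbered 3, beside 4251 of all windows tested. They numbered 1 with a pseudocount of 1 (beside 784), and 0 with the study's upper depth limit (47 members tested, beside 2408), median centring (513), quantile normalization (638), the 5 Mb bin median removed (301), edgeR (579) and DESeq2 (611), and 1 to 14 when single libraries were left out (2974 to 6107). Members called lower numbered 0 (beside 410), and 14 with median centring (1265), 14 with quantile normalization (1100), 7 with the bin median removed (731), 21 by edgeR (1461), 19 by DESeq2 (1393), and 0 to 2 when single libraries were left out (348 to 506). The difference between the medians of members and of all windows was -0.32, and -0.26 and -0.21 with pseudocounts of 0.5 and 1, -0.0082 without a filter, -0.49 with the upper depth limit, -0.25 with the bin median removed, and -0.37 to -0.29 when single libraries were left out. The cause was not tested. The counts beyond 2 were 0 in every alternative run, beside 9 to 230 of all windows called higher and 3 to 265 called lower. In A2780 and CP70 1.5 FPKM corresponds to 19.8 to 90.7 reads, and in PEO1 to 13.5 to 17.2.

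The replicate numbers did not pair the libraries. Deviations of same-numbered A2780 and CP70 libraries correlated at -0.41, -0.17 and -0.04. With the replicate block 3 members were called higher, 0 lower, and the difference of medians was -0.32, while members higher at an adjusted p under 0.05 alone went from 31 to 19.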
